A study of Mus musculus with 8 samples.

Results

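The 7 genes described here encode the peroxisome proliferator-activated receptors (Ppara, Ppard and Pparg), their retinoid X receptor partners (Rxra and Rxrb) and the coactivators PGC-1α and PGC-1β (Ppargc1a and Ppargc1b). They were taken by symbol from the 21887 protein-coding genes of RefSeq on GRCm38, and each locus was the annotated gene body plus 50 kb on either side. All 7 were found and all 7 passed the filter on covered length for both marks. Acetylation of histone H3 was profiled by CUT&Tag, a method that uses an antibody to bring a transposase to a chromatin mark, in intestinal crypt epithelium from male C57BL/6J mice aged 9 weeks. The mice were fed or had been fasted for 24 h, and each feeding state was studied without tetracycline (-Tetra) and after 21 days of tetracycline (+Tetra). The 4 groups are called Fed and Fast without or with tetracycline, and each had 1 sample per mark with 2 deposited peak lists. This gave 8 lists for H3K27ac, a mark of active enhancers and promoters, and 8 for H3K9ac, a mark of active promoters. The series addresses whether fasting alters crypt chromatin and whether the bacteria that tetracycline depletes take part.

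PPARs are nuclear receptors that bind fatty acids and their derivatives and regulate genes of lipid uptake, oxidation and storage. They bind DNA as heterodimers with a retinoid X receptor, at direct repeats of a hexamer separated by a single base, and recruit coactivators such as PGC-1α and PGC-1β, which also serve other receptors in mitochondrial gene regulation. In the intestinal epithelium, PPARα and PPARδ are known for the fatty acid oxidation programme that follows fasting or a lipid-rich diet, and PPARγ for lipid handling and differentiation, most of all in the colon and in adipose tissue.

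The start sites of the family ranged from CpG-poor to CpG-rich, and the 4 sequences below give 1 CpG-rich and 3 CpG-poor examples. Each is the 250 bases before an annotated RefSeq start site (GRCm38.p6), written 5′ to 3′ on the gene's strand, with CpG dinucleotides in capitals. The Ppard sequence (chr17:28232504-28232753, plus strand) is CpG-rich and lies before a start marked in all 16 lists. The others precede the third start of Pparg (chr6:115421816-115422065, plus strand), the second start of Rxra (chr2:27709042-27709291, plus strand) and the start of Ppargc1a (chr5:51567726-51567975, minus strand), which were marked in 1, 4 and 0 of the 16 lists.
Ppard: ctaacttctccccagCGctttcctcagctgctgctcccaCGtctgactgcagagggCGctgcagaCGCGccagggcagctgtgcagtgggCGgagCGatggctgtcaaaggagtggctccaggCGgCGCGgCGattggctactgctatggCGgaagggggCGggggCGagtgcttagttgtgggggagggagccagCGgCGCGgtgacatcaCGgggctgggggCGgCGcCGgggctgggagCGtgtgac
Pparg start 3: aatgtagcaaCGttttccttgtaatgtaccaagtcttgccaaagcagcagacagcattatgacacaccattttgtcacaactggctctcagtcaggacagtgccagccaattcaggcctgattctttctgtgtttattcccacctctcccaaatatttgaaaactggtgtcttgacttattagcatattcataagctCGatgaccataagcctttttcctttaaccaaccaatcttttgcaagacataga
Rxra start 2: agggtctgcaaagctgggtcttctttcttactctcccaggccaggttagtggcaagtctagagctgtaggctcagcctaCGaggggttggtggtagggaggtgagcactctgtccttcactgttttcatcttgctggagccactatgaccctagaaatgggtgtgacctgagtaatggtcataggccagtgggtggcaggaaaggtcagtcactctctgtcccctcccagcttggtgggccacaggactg
Ppargc1a: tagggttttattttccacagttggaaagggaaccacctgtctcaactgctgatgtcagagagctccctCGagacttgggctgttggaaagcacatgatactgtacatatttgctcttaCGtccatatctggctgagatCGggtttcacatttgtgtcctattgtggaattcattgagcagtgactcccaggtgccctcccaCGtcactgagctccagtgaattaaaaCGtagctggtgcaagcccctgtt

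The Ppard window held 22 CpG dinucleotides, against 2, 1 and 5 in the other sequences. The remaining CpG-rich windows were those of Ppara with 27, the first Pparg start with 38, the first Rxra start with 40 and the Rxrb starts with 31 and 39. The second Pparg start was intermediate with 12. Over all 21263 start sites of protein-coding genes in the table, the share with an H3K27ac peak within 1 kb in all 8 lists was 8.28% at 0 to 4 CpG, 26.0% at 5 to 9, 49.0% at 10 to 19 and 58.5% at 20 or more. The corresponding shares for H3K9ac were 2.94%, 14.1%, 30.2% and 38%. Over all these starts, 33.8% had H3K27ac and 20.3% H3K9ac in all 8 lists. Of the 10 member starts 3 had H3K27ac in all 8 lists and 6 had H3K9ac, and all of them had at least 12 CpG. The 6 include the first 2 Pparg starts and both Rxrb starts, pairs that lie close together and share peaks, so they are not independent. Ppargc1b had no sequence in the table.

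**Figure D1:**
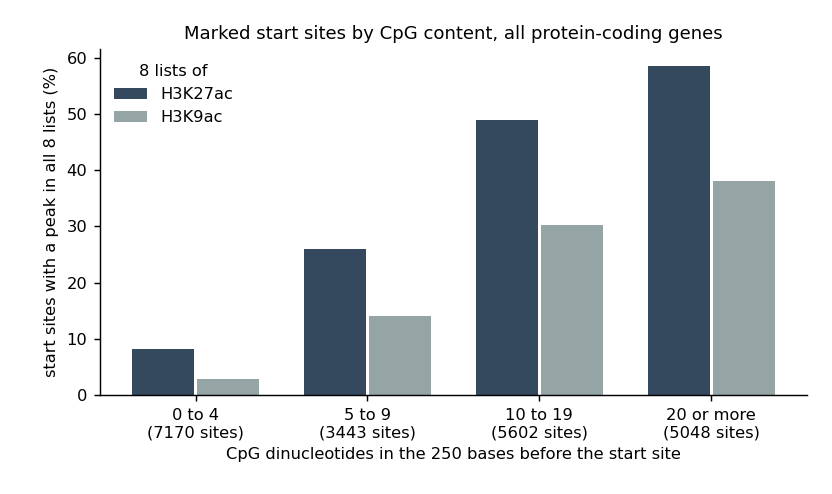
Share of all start sites of protein-coding genes with a peak within 1 kb in all 8 lists of H3K27ac (dark bars) or H3K9ac (light bars), by the number of CpG dinucleotides in the 250 bases before the start. The H3K27ac share is 8.28% in the poorest class, which holds the third Pparg and second Rxra starts, and 58.5% in the richest, which holds Ppard.

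Letters of known elements were searched in these windows on both strands. The receptor heterodimer element DR1, a direct repeat of AGGTCA with a single base between the copies, was in none of the 10 member windows and in 0.0423% of all start sites. Its single hexamer AGGTCA was found once before each of the first 2 Pparg starts and 2 times before the second Rxra start, and 12.8% of all start sites held it. The hexamer is contained in the longer element, so the searches overlap. A GC box (GGGCGG) was present in the windows of Ppara, Ppard, the first 2 Pparg starts, the first Rxra start and both Rxrb starts, against 42.6% of all start sites. It was absent from the 3 CpG-poor windows printed above. A TATAAA box occurred in 1 window, that of the second Pparg start, against 11.6% of all start sites, and the cyclic AMP response element TGACGTCA in none, against 1.92%.

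The depth behind the lists is unknown, because they give peaks and a score but no reads. H3K27ac lists held 32392 to 68545 peaks covering 33.1 to 64.2 Mb, and H3K9ac lists 17249 to 99050 peaks covering 16.5 to 47.3 Mb. In Fast list 1 without tetracycline, peaks of exactly 200 bp were 17.2% of the H3K9ac and 11.8% of the H3K27ac peaks. With tetracycline they were 20.3% of the H3K9ac peaks in Fast list 1 and 31.2% in Fast list 2. In the other 12 lists the share was at most 1.73%. The labels do not say whether lists 1 and 2 of a sample came from different mice, so p-values measure the spread between lists, which may be technical. As a check of the labelled epithelium, all 10 epithelial marker genes carried H3K27ac at a gene end in every list, and 7 of them H3K9ac. Of 6 adipocyte markers, 4 (Adipoq, Lep, Fabp4 and Cfd) had no H3K27ac peak in any list, whereas Cidec had one in 8 lists and Plin1 in 6. No H3K27ac peak was found in any list at 5 of 6 fibroblast and smooth muscle markers. The same held at only 2 of 4 hepatocyte and 1 of 4 skeletal muscle markers. H3K27ac was in every list at 1 of the hepatocyte and 0 of the skeletal muscle markers, and the rest were marked in some lists. Immune markers with H3K27ac at a gene end numbered 2 to 3 of 6 in Fed lists and 3 to 4 in Fast lists. Ptprc, the pan-leukocyte marker, was marked in 0 Fed and 4 Fast lists and Itgam, a myeloid marker, in 2 and 4. The T cell marker Cd3e went the other way, with 4 Fed and 2 Fast lists, the B cell marker Cd79a was marked in all 8, and Cd4 in none. H3K9ac marked 0 to 3 of the 6 immune genes in Fed lists and 1 to 3 in Fast lists. It was at Ptprc in 0 lists and at Itgam in 1 Fast list. The part of such cells in the results below was not tested. Fewer cells carrying a mark and less of the mark per cell cannot be told apart in pooled crypt cells.

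Of the 7 genes, 4 had H3K27ac within 1 kb of a gene end in all 8 lists (Ppara, Ppard, Rxra and Ppargc1b), where 33.6% of all protein-coding genes did. Pparg and Rxrb were marked in 6 lists each, with 4 Fed and 2 Fast lists, and Ppargc1a in 1. H3K9ac was found there in every list for 5 of the 7 (Ppara, Ppard, Pparg, Rxrb and Ppargc1b), where 21.1% of all genes were. Rxra followed with 7 lists and Ppargc1a with 4. No member lacked a mark in all lists, whereas 39.4% of genes had no H3K27ac and 25.2% no H3K9ac at their ends. Fast and Fed counts differed by at most 2 lists for every member and mark. Larger differences were rare over all genes. At least 3 more Fast lists were found at 0.841% of genes for H3K27ac and 1.04% for H3K9ac, and at least 3 more Fed lists at 0.256% and 0.726%.

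**Figure D2:**
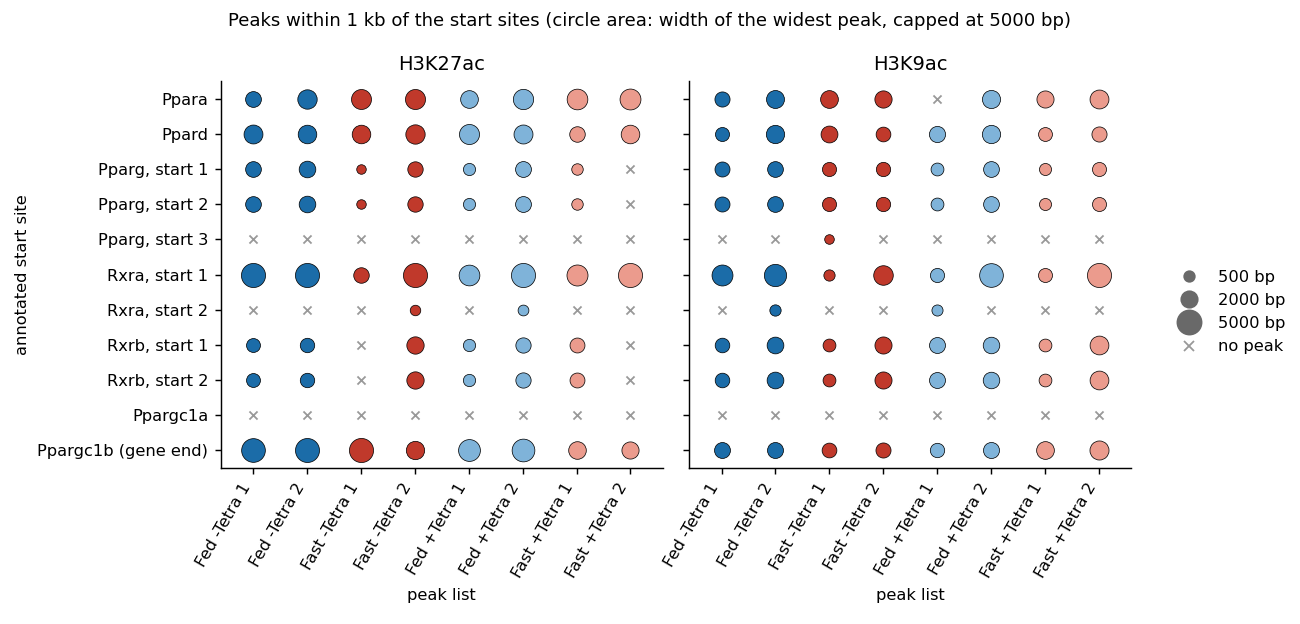
Peaks within 1 kb of each annotated start site (rows) in each of the 8 lists (columns) of H3K27ac (left) and H3K9ac (right); circle area is the width of the widest peak, capped at 5000 bp, and a cross marks no peak. The rows of Ppargc1a and of the third Pparg start are almost empty, whereas Ppard and the first Rxra start carry a peak in all 16 lists; for Ppargc1b the higher-coordinate gene end is shown.

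Ppara encodes PPARα, the receptor of the fasting response in liver and of fatty acid oxidation in enterocytes. Its locus (gene body chr15:85734910-85806851) was among the most heavily marked, with peaks over 18.6% of its length for H3K27ac on average over 8 lists (SD 4.12), above 97.6% of genes. The H3K27ac peak at its start was 1824 and 3037 bp wide in Fed lists without tetracycline and 2438 and 3373 bp with it, and 3251, 3284, 3535 and 3629 bp in Fast lists. Fast peaks were thus wider than 3 of the 4 Fed peaks, and the groups overlapped through Fed list 2 with tetracycline. The authors' score placed this peak among the top 1.23% to 7.35% of every list.

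H3K27ac covered 21.8 and 31.0 kb of the Ppara locus in Fed lists without tetracycline and 25.8 and 40.5 kb with it, against 31.2 and 41.3 kb in Fast lists without and 27 and 36.8 kb with tetracycline. The ranges overlapped, and the mean was 29.8 ± 8.10 kb in Fed and 34.1 ± 6.26 kb in Fast lists (SD, n = 4 each). Of 27 merged H3K27ac regions at this locus, 11 were in all 8 lists. These included 6 in the gene body, the strongest by median rank at chr15:85773797-85777619, 39.9 kb downstream of the start, in the top 2.77% of a list. Its rank ran from the top 1.69% in Fast list 2 to the top 56.3% in Fed list 1, both without tetracycline. Another constant region, chr15:85697989-85707891, lay upstream over the noncoding gene Lncppara and the microRNA genes Mirlet7b and Mirlet7c-2. Regions at the downstream neighbours Cdpf1 and Ttc38 also belong to the locus as defined, and no region is assigned to a target gene here.

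H3K9ac at the Ppara start was missing from 1 list, Fed 1 with tetracycline. Over the locus it covered 4.86 and 14.8 kb in Fed lists without tetracycline and 10.4 and 16 kb with it, and 9.62, 6.66, 10.6 and 14.9 kb in Fast lists. Fed lists spanned the whole Fast range. Only 1 of 48 H3K9ac regions at the locus was in all 8 lists, at the end of Lncppara (chr15:85701175-85703654).

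Ppard encodes PPARδ, a receptor known for fatty acid oxidation in crypt and stem cells. Its start (chr17:28232754, plus strand) was marked in all 8 lists of either mark, as was the first Rxra start. Peaks covered 19.1% of its locus for H3K27ac (SD 4.10) and 10.7% for H3K9ac (SD 2.84), above 97.8% and 97.3% of genes. That locus also holds 5 other coding genes, Zfp523, Def6, Fance, Rpl10a and Tead3. Of its flank regions, 6 of 15 for H3K27ac and 7 of 32 for H3K9ac lay at an end of another coding gene. The widest H3K27ac peak within 1 kb of the start measured 2864, 2745, 3283 and 2886 bp in Fed lists and 2747, 3018, 1746 and 2753 bp in Fast lists. The 2886 bp peak, in Fed list 2 with tetracycline, belongs to the separate upstream region named below. It was 1 of 3 peaks within 1 kb in that list, so the width at the start itself is not given there. Among the other lists, the narrow one was Fast list 1 with tetracycline, and the rest lay between 2745 and 3283 bp. The neighbouring gene Def6 ends just upstream, at a separate region (chr17:28228920-28231876) that was also present in all 8 lists.

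Within the Ppard body, a region at chr17:28268037-28273914 had H3K27ac in all 8 lists at a median rank in the top 1.76%, and H3K9ac in all 8 lists at chr17:28270816-28273694. It covers the noncoding gene 1810013A23Rik, 38.2 kb downstream of the start. H3K27ac covered 32.0 and 38.7 kb (Fed) and 27.8 and 43.9 kb (Fast) of the locus without tetracycline, and 23.6 and 36.3 kb (Fed) and 25.6 and 30.4 kb (Fast) with it. List 2 of each pair was the higher, and feeding states overlapped. H3K9ac covered 18 and 25.3 kb (Fed) against 14.2 and 15.6 kb (Fast) without tetracycline, where both Fed lists were higher, and 10.5 and 23.5 kb against 19.2 and 17.5 kb with it, where they were not.

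Pparg encodes PPARγ, the master regulator of adipocytes. Its first start serves the widely expressed receptor, and the third is that of the adipocyte form. The first 2 starts (chr6:115361144 and chr6:115362349) lie close together and shared their peaks. H3K9ac was there in all 8 lists, with peaks of 1599 and 1810 bp in Fed lists without tetracycline, 1023 and 1822 bp in Fed lists with it, and 1351, 1400, 837 and 1332 bp in Fast lists. H3K27ac peaks there were narrower in Fast lists, at 309, 1705 and 702 bp with no peak in Fast list 2 with tetracycline, against 1802, 2087, 866 and 1843 bp in Fed lists. The 309 bp peak lay within 1 kb of a start but not of the gene end, which is why the gene-end count is 6. The groups overlapped, since the Fast peak of 1705 bp was wider than the Fed peak of 866 bp. The rank of this H3K27ac peak was middling, between the top 15.5% and the top 91.9% of a list, while the H3K9ac peak lay in the top 1.86% to 31.8%.

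The third Pparg start (chr6:115422066) had no H3K27ac peak in any list and an H3K9ac peak of 323 bp in 1 list, Fast 1 without tetracycline. This is the start whose CpG-poor sequence is printed above. Over all start sites, 41.0% had no H3K27ac peak in any list and 30.5% no H3K9ac peak. Between the starts and the downstream flank, 5 H3K27ac regions were in all 8 lists. The strongest, chr6:115502418-115505030, lay beyond the 3′ end of the gene, 81.7 kb from the nearest start, in the top 3.21% by median rank. The locus holds no other protein-coding gene.

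H3K27ac covered 10.2 and 12.4 kb of the Pparg locus in Fed lists without tetracycline and 8.03 and 13.7 kb with it, and 14.1, 14, 11 and 7.41 kb in Fast lists. The highest and lowest values were thus both Fast. H3K9ac covered little, from 1.60 to 5.38 kb, and Fed list 1 without tetracycline had its single peak at the start. The mean H3K9ac share of 1.78% (SD 0.531) was above 42.8% of genes, whereas the H3K27ac share of 4.95% (SD 1.15) was above 64.6%.

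Rxra encodes RXRα, a broadly expressed heterodimer partner of the PPARs. The widest H3K27ac domain of the family lay over its first start (chr2:27677201, plus strand): the merged region chr2:27671169-27681139 spanned 9971 bp, and peaks covered 7013 to 9758 bp of it in the 8 lists. Single H3K27ac peaks within 1 kb of the start were 5172, 7021, 3559 and 6913 bp wide in Fed lists and 1748, 9680, 3675 and 5274 bp in Fast lists. The widest and the narrowest were both Fast without tetracycline, in lists 2 and 1. In list 1 the domain was split into 5 peaks that together covered 7544 bp.

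The widest H3K9ac peak within 1 kb of the first Rxra start was 3647, 4178, 1365 and 4810 bp in Fed lists and 656, 3101, 1321 and 5310 bp in Fast lists. The 3101 bp peak was not within 1 kb of the gene end, so the gene-end count is 7. Where the merged region held 2 peaks, they covered 5041 bp (Fed 2 without tetracycline), 2608 bp (Fed 1 with it) and 1953 bp (Fast 1 with it). The narrowest peak was also the lowest ranked, in the top 92.0% of its list, Fast 1 without tetracycline. The second start (chr2:27709292), the CpG-poor one printed above, had H3K27ac in 2 lists, Fast 2 without and Fed 2 with tetracycline, and H3K9ac in 2 others, Fed 2 without and Fed 1 with tetracycline. These peaks were 498 to 662 bp wide. Constant regions of the Rxra body sat between and beyond the starts, at chr2:27681445-27689814 and chr2:27701594-27705400 for H3K27ac and at chr2:27716220-27720027 for H3K9ac.

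H3K27ac covered 23.4 and 31.3 kb of the Rxra locus in Fed lists without tetracycline and 19.4 and 33.0 kb with it, and 25.1, 36.5, 20.2 and 23.1 kb in Fast lists. H3K9ac covered 8.36 and 21.8 kb in Fed lists without tetracycline and 7.82 and 20.3 kb with it, but 6.47, 7.82, 7.95 and 13.4 kb in Fast lists. Fed lists 2 stood well above every Fast list, and Fed lists 1 lay within the Fast range. The H3K9ac means were 14.6 ± 7.52 kb in Fed and 8.91 ± 3.06 kb in Fast lists (SD, n = 4 each).

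Rxrb, encoding RXRβ, is a short gene (chr17:34031812-34038403) in the major histocompatibility complex, and its start lies beside that of the divergent zinc transporter gene Slc39a7. H3K9ac was within 1 kb of this start in all 8 lists, with peaks of 1006 to 2826 bp. H3K27ac was there in all 4 Fed lists, at 1294, 1433, 888 and 1673 bp, and in 2 of 4 Fast lists, at 2309 and 1574 bp. The lists without it were Fast 1 without and Fast 2 with tetracycline, and the latter also lacked the Pparg peak. Where present, the Fast peaks lay within or above the Fed range. The only H3K27ac region of the locus in all 8 lists belonged to the upstream neighbour H2-K1 (chr17:33998486-34001214), and the Rxrb body had 1 peak in 1 list of either mark.

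**Figure D3:**
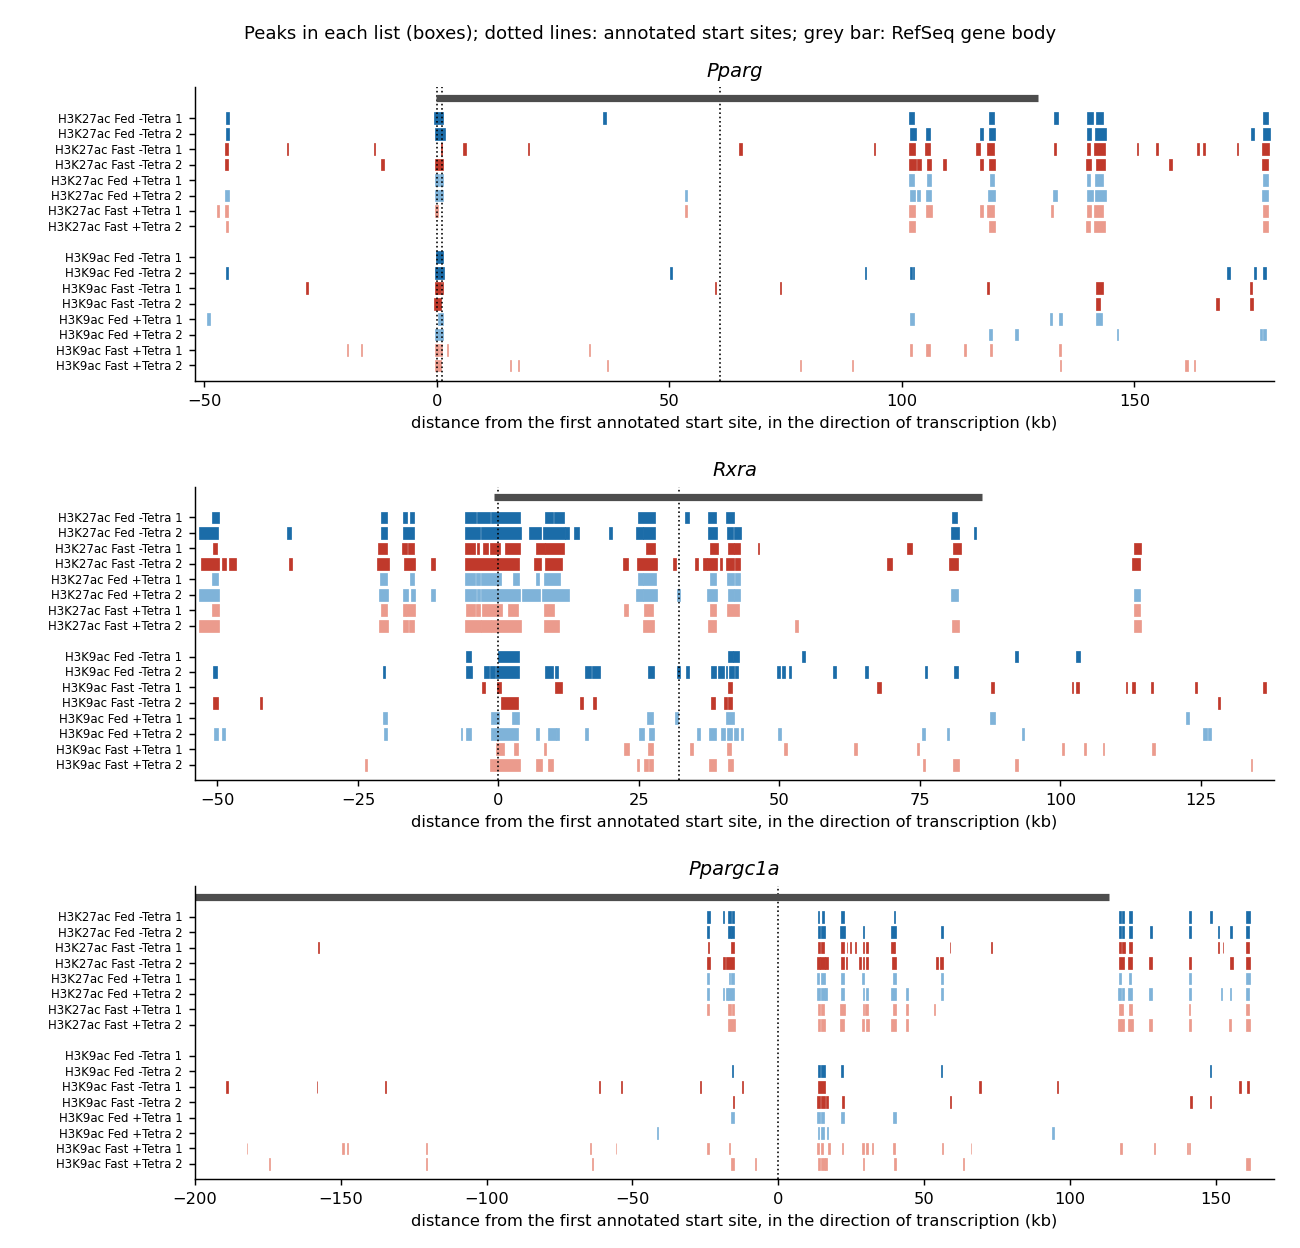
Peaks of all 16 lists (boxes, coloured by group as named at the left) along the Pparg, Rxra and Ppargc1a loci, as distance in kb from the first annotated start in the direction of transcription; dotted lines are annotated starts and the grey bar is the gene body, which for Ppargc1a runs past the left edge. Boxes line up at the first start of Pparg and Rxra, while the Ppargc1a start lies in a gap between H3K27ac regions about 14.7 kb downstream and 16.3 kb upstream of it.

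Ppargc1a encodes PGC-1α, the coactivator induced by fasting in liver and by exercise in muscle. RefSeq gives it the longest body of the 7 genes (chr5:51454249-52115853, 661.605 kb, minus strand), most of it upstream of the start in the promoter table. That start (chr5:51567725), whose CpG-poor sequence is printed above, had no peak of either mark within 1 kb in any list. The marks lay instead on both sides of it. H3K27ac was in all 8 lists at chr5:51551610-51554350, centred 14.7 kb downstream, and at chr5:51582594-51585521, centred 16.3 kb upstream. The downstream region carried 1341 and 2219 bp of H3K27ac in Fed lists without tetracycline, 1923 and 2217 bp in Fed lists with it, and 1732, 2573, 2208 and 2263 bp in Fast lists. Its H3K9ac counterpart (chr5:51550613-51554345) was in 7 lists and missing only from Fed 1 without tetracycline, where the whole locus had no H3K9ac peak.

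H3K27ac covered 13.2 and 19 kb of the Ppargc1a locus in Fed lists without tetracycline and 13.8 and 23.4 kb with it, and 16.2, 27.3, 18.1 and 20.6 kb in Fast lists. As a share of its length this was 2.49% on average (SD 0.630), above 46.9% of genes. H3K9ac covered 0, 7.39, 6.64 and 6.28 kb in Fed lists and 14.6, 7.12, 18.2 and 7.95 kb in Fast lists. The Fast lists 1 without and with tetracycline held 29 and 42 H3K9ac peaks at the locus, against 0 to 16 in the other lists. These were 2 of the 3 H3K9ac lists rich in 200 bp peaks, and 81 of the 96 H3K9ac regions of the locus were in a single list.

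Ppargc1b encodes PGC-1β, which shares the mitochondrial and lipid targets of PGC-1α. Its start was not in the promoter table, so the higher-coordinate end of the body (chr18:61291445-61400756) was used. That end carried the H3K27ac region with the best median rank among the members' gene ends, in the top 1.80%, and its peaks lay in the top 0.423% to 5.88% of every list. Tied scores limit this order. The top 1.90% in Fed list 2 without tetracycline was shared with Ppard, and 1.69% in Fast list 2 without it with Ppara and Rxra. The top 2.84% in Fed list 2 with tetracycline was shared with all 3. The widest peak was 4819, 4957, 3996 and 4388 bp wide in Fed lists and 5085, 2660, 2407 and 2261 bp in Fast lists, so that 3 of 4 Fast peaks were narrower than every Fed peak. In those 3 lists the end was covered by 2 peaks rather than 1. Together, the peaks of the merged region there covered 4819, 4957, 3996 and 4388 bp in Fed lists and 5085, 4996, 4626 and 4325 bp in Fast lists. By this measure Fast lists were not lower. The merged region, chr18:61397430-61402945, includes the microRNA gene Mir378a, which lies within Ppargc1b. H3K9ac was there in all 8 lists at 1419 to 2924 bp.

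H3K27ac covered 19.1 and 29.2 kb of the Ppargc1b locus in Fed lists without tetracycline and 17.2 and 31.9 kb with it, and 25, 33.2, 22.9 and 28.0 kb in Fast lists. H3K9ac covered 3.40, 10.2, 4.16 and 8.11 kb in Fed lists and 4.87, 4.10, 8.88 and 9.59 kb in Fast lists. Neither mark separated the feeding states.

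**Figure D4:**
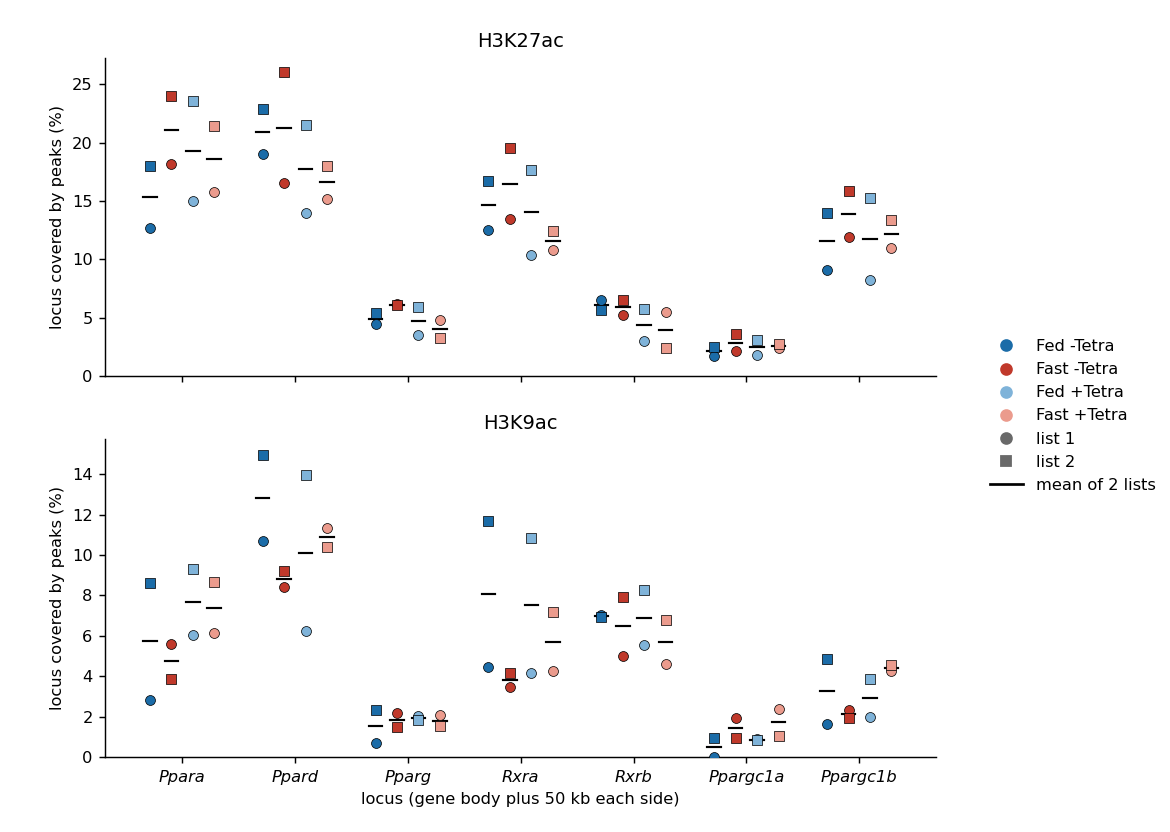
Percent of each locus covered by H3K27ac (top) and H3K9ac (bottom) peaks, 1 point per list, coloured by group, with circles for lists 1, squares for lists 2 and a line at the mean of the 2 lists. Ppara, Ppard, Rxra and Ppargc1b are the most covered by H3K27ac, from 12.3% to 19.1% on average, and feeding groups overlap in every locus and mark.

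The first comparison of the design was fasting. No member passed the test of covered length between Fast and Fed lists for either mark. Across all loci, limma with Benjamini-Hochberg adjustment called 51 of 18510 higher in Fast for H3K27ac (0.276%) and 0 lower (0%), and for H3K9ac 0 of 21106 in either direction (0%). At an unadjusted p under 0.05 there were 1948 and 1104 loci. Groups that did not overlap were found at 6.26% of loci with Fast above Fed for H3K27ac and 3.61% for H3K9ac, and at 0.151% and 0.261% with Fed above Fast. None of the 7 members was among them.

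For H3K27ac, the fasting log2 ratio of covered length (Fast over Fed, on log2 of base pairs plus 500) was 0.21 for Ppara, -0.038 for Ppard, 0.053 for Pparg, -0.031 for Rxra, -0.11 for Rxrb, 0.25 for Ppargc1a and 0.19 for Ppargc1b. The limma adjusted p lay between 0.78 and 0.98. The widest of the 95% intervals was that of Rxrb, -0.76 to 0.54, and that of Ppargc1a ran from -0.33 to 0.83. The members' median of 0.05 stood beside a median of 0.22 over all loci. When every list was scaled to the same total covered length the median over all loci fell to -0.03 and that of the members to -0.23, with all 7 below 0. On that scale Ppard was at -0.33 and Rxra at -0.32, with unadjusted p of 0.028 and 0.017 and limma adjusted p of 0.232 and 0.195.

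For H3K9ac the ratios were -0.063 for Ppara, -0.15 for Ppard, 0.15 for Pparg, -0.58 for Rxra, -0.20 for Rxrb and 0.12 for Ppargc1b, with a limma adjusted p of 0.84 to 0.97 and a median over all loci of 0.30. Ppargc1a stood apart at 1.64 (95% interval 0.35 to 2.94), above 99.3% of loci, with an unadjusted p of 0.016 and a limma adjusted p of 0.84. Because Fed list 1 without tetracycline was at 0, this ratio depends on the 500 bp added, and it was 2.23 with 100 bp and 1.13 with 2000 bp. It rested on lists 1: without them the ratio was 0.13, and without lists 2 it was 3.15 (limma adjusted p = 0.057). With equally many top-scoring peaks per list it was 0.38, and over all alternatives the limma adjusted p ranged from 0.057 to 1. Rxra had the lowest H3K9ac ratio of the members, above 1.57% of loci, and it was -1.01 after scaling to the same total, with an unadjusted p of 0.0084 and a limma adjusted p of 0.29. That scaling moved the all-locus median to -0.05 and the members' median from -0.06 to -0.49.

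**Figure D5:**
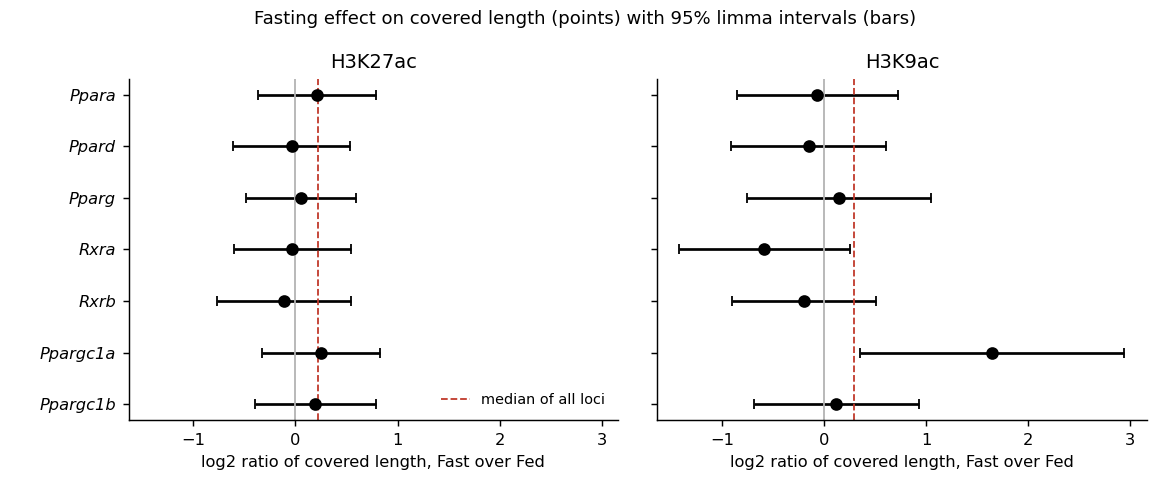
Log2 ratio of covered length, Fast over Fed (points), with 95% limma intervals (bars) for the 7 loci and both marks; the dashed line is the median of all loci, 0.22 for H3K27ac and 0.30 for H3K9ac. Intervals cross 0 except that of Ppargc1a for H3K9ac, 0.35 to 2.94.

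Exact permutation of the feeding labels within tetracycline states (36 arrangements, two-sided) allows no p below 0.056, so that test cannot reach 0.05. The members' smallest values were 0.44 for H3K27ac and 0.11 for H3K9ac, the latter at Ppargc1a. The sign of several small ratios depended on the list number: for H3K27ac the ratio of Pparg was -0.34 without lists 1 and 0.45 without lists 2.

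Tetracycline was the other factor. The members' H3K27ac ratios, with over without tetracycline, were between -0.56 for Rxrb and 0.063 for Ppara, with a median of -0.29 beside -0.11 over all loci. The interval of Rxrb was -1.21 to 0.09. The covered length of its locus was 6.93, 6.00, 5.60 and 6.92 kb without tetracycline against 3.19, 6.10, 5.80 and 2.52 kb with it. Of this, the Rxrb body held 1.095, 0.419, 0 and 0.95 kb without and 0.271, 0.499, 0.759 and 0 kb with tetracycline. The rest lay in flanks shared with H2-K1, Ring1, H2-Ke6, Slc39a7 and Col11a2. With tetracycline, 1 list of each feeding state was low over the locus. For H3K9ac the ratios lay between -0.10 for Rxrb and 1.02 for Ppargc1a, with a median of 0.24 beside 0.09 over all loci. Limma called no locus for tetracycline in either mark (0%), with 697 and 93 loci at an unadjusted p under 0.05, and no member had one. The smallest permutation p among members was 0.22 for H3K27ac and 0.17 for H3K9ac.

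The difference of the fasting ratio between tetracycline states was then tested as an interaction, and limma called no locus in either mark (0%), with 288 and 89 at an unadjusted p under 0.05. All 7 H3K27ac values of the members were below 0, meaning a smaller Fast over Fed ratio with tetracycline, from -0.51 for Pparg to -0.058 for Ppard. Their intervals all included 0, that of Pparg being -1.58 to 0.56, and the median over all loci was -0.15. Of the 7 values, 4 were below 0 after scaling to the same total and 3 without lists 2. H3K9ac values ran from -1.58 for Ppargc1a to 1 for Ppargc1b. The interval of Ppargc1a was -4.18 to 1.01.

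Single regions were compared next. For each mark, overlapping peaks of its 8 lists made up 215 H3K27ac and 356 H3K9ac regions at the 7 loci. Of these, 52 H3K27ac regions (24.2%) were in all 8 lists, against 14.6% genome-wide, and 11 H3K9ac regions (3.09%), against 1.52%. Regions in a single list made up 41.9% and 71.9%, against 53.1% and 84.4%. A single H3K27ac region was in all 4 Fast lists and no Fed list, where 0.400% of all regions were, and none was in all Fed lists only (0.0837% of all). No H3K9ac region split completely in either direction (0.0189% and 0.0145% of all).

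The complete split lay in the flank beyond the marked end of Ppargc1b, 35.5 kb away (chr18:61435634-61436903). Its peaks were 1134 and 868 bp wide in Fast lists without tetracycline and 588 and 1003 bp with it. They ranked in the top 48.3% to 68.3% of their lists, and no H3K9ac peak overlapped the region. Present in 4 Fast and 1 Fed list were a region in the Ppargc1a body 30.4 kb downstream of its start (chr5:51536735-51537839) and one in the downstream flank of Rxra (chr2:27790011-27791551). The exception was in each case Fed list 2 with tetracycline. Regions in the bodies of Ppargc1a (chr5:51799284-51800074) and Ppargc1b (chr18:61381588-61382530) were in 3 Fast and no Fed lists. In all, 5 of the 215 H3K27ac regions were in at least 3 more Fast than Fed lists (2.11% of all regions were). A further 2 were in at least 3 more Fed lists (0.710% of all), downstream of Ppara and in the Ppargc1b body. Both shares were near those of all 112301 regions, of which 2367 and 797 differed in these directions.

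For H3K9ac the balance at the 7 loci was the other way. At least 3 more Fed than Fast lists held 6 regions, where 0.225% of all regions did, and at least 3 more Fast lists held 1, in the Ppargc1b body, where 0.330% did. The 6 were 2 each at Ppara, Ppard and Rxra, and all lay under H3K27ac present in all 8 lists. At Ppara they were chr15:85703780-85705131, over an end of Lncppara, and chr15:85774121-85775681, within the strongest body region named above. At Ppard they were chr17:28268924-28270589, within the body region over 1810013A23Rik, and chr17:28279357-28281654, which was in 4 Fed and 1 Fast lists. The latter had H3K9ac peaks of 1953 and 1968 bp in Fed lists without tetracycline and 1084 and 1929 bp with it, against 1376 bp in Fast list 1 with tetracycline and no peak in the other Fast lists. At Rxra they were chr2:27656581-27657296 and chr2:27671446-27672483 in the upstream flank, the second 5.24 kb before the start and inside the wide H3K27ac domain.

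H3K9ac regions that lie under constant H3K27ac were more often of this kind genome-wide as well. Among the 16937 such regions genome-wide, 2.25% were in at least 3 more Fed than Fast lists, and among the 53 at the 7 loci 6 were (11.3%). The opposite difference was found at 1.49% and at 1 of the 53. Counts fell to 3 with the upper 0.5 of each list by score and to 3 with equal numbers of top-scoring peaks, and Fed list 2 without tetracycline held all 6. These regions were counted after their values had been seen, and neighbouring regions of a locus are not independent, so no test was made.

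The other genes of the pathway were taken from lists of coregulators, of lipid-sensing and target genes and of partners of the coactivators. Among 17 coregulators, 10 had H3K27ac at a gene end in all 8 lists and 9 had H3K9ac, both counts including the steroid receptor coactivators Ncoa2 and Ncoa3, the acetyltransferases Crebbp and Ep300 and the corepressors Ncor1 and Nrip1. Rxrg, the third retinoid X receptor, had H3K27ac in none and H3K9ac in 1 Fed and 1 Fast list. None of the 17 differed by 3 or more lists between feeding states in either mark. Of 7 partners, 6 had H3K27ac and 4 had H3K9ac in all 8 lists, the exception for H3K27ac being Esrrg with 0 Fed and 2 Fast lists.

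Of 27 lipid-sensing and target genes, 18 had H3K27ac in all 8 lists and 10 had H3K9ac. Cpt1a, the gate of mitochondrial fatty acid oxidation, and Fabp1 and Fabp2, the fatty acid binding proteins of enterocytes, had both marks in all 8 lists. The 5 genes with no H3K27ac in any list were Adipoq, Fabp4, Lpl, Fgf21 and Scd1, each with H3K9ac in 1 to 3 lists. Over all genes, a difference of at least 3 more Fast lists for H3K27ac was found at 0.841%, and for H3K9ac at 1.04%. The opposite H3K27ac difference, found at 0.256% of genes, occurred at none of the lipid genes. Acsl1, which activates long-chain fatty acids, and Acaa2, a thiolase of β-oxidation, had H3K9ac in 4 Fed and 1 Fast lists, and 0.726% of all genes had H3K9ac in at least 3 more Fed than Fast lists. Both kept H3K27ac in 4 Fed and 4 Fast lists. The median difference between Fast and Fed lists was 0 for each of these lists and both marks.

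By presence at gene ends over the 16 lists, the genes most like Pparg were Sympk, Nudt18 and Gys1, which matched it in all 16 lists. They were the nearest in mean covered length among 19 such genes. For Rxrb they were Hsph1, Aaas and Nudt18, again of 19 genes with 0 mismatches. For Ppargc1a, marked at a gene end in 5 of 16 lists, Mto1 and Gp5 had 0 mismatches and Idh2 had 1. The other members were marked in 15 or 16 lists and were not compared.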

How the data were processed

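CUT&Tag peak lists were deposited for 4 H3K27ac and 4 H3K9ac samples, 2 lists per sample. Per the submitters' processing notes, FastQC, Bowtie and SAMtools were used with build mm10, whose main chromosomes are those of GRCm38. Peaks were called separately per list, with names that begin with MACS, and the deposited list names describe the data as downsampled. Versions, the calling threshold and the use of the IgG named in the labels are not given in the sources used here. The authors' deposited score per peak has no stated unit, so peaks were only ranked or filtered by it inside their own list. Peaks with tied scores received the same mean rank, so the rank cannot order them. The lists hold no reads, and depth is unknown.

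Peaks on chromosomes 1 to 19, X and Y were used with 21887 protein-coding genes of RefSeq GRCm38.p6. Start sites came from its promoter table, which held 6 of the 7 members. Covered length per locus, as log2(bp + 500), was fitted with limma 3.58.1 in R 4.3.3 (with trend) over all loci covered in at least 2 lists of a mark, as 4 groups of 2 lists, with Benjamini-Hochberg adjustment over all loci at 0.05. The fit was tested on simulated data. A gene end or start was marked by a peak within 1 kb, and regions were formed from peaks sharing at least 1 bp.

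The members and lists were chosen with earlier results of these data known. All members are named, as are regions at gene ends with the most lists, regions split completely by feeding, up to 2 constant regions per locus ranked by score, pathway genes differing by at least 3 lists, and the 3 genes with the fewest mismatches over 1 Mb away (for members marked in 2 to 14 lists). Other regions and pathway genes were named after their values were seen. The values of 1 pathway gene and 1 marker gene are not reported here. Alternatives kept only high-scoring peaks (the upper 0.5, or equal numbers), only peaks of at least 500 bp, flanks of 25 kb or none, pseudocounts of 100 or 2000 bp, no filter, equal total covered length, a block for the list number, lists of 1 number, an exact permutation test, a 2.5 kb window or bridged gaps of 500 bp. The software was Python 3.11.15 with matplotlib 3.10.9, scipy 1.17.1, pandas 2.3.3 and numpy 2.4.6.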

Additional observations from a re-analysis of the deposited data

How the results depend on the processing

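No member passed the test in any contrast or mark under any alternative. Of 182 alternative values of the members' fasting log2 ratios, 155 kept their direction and 27 did not, at 10 of the 14 gene and mark pairs; the cause was not tested. Scaled to the same total covered length, H3K27ac ratios turned to -0.078 (Ppara), -0.23 (Pparg), -0.033 (Ppargc1a) and -0.094 (Ppargc1b), and H3K9ac ratios to -0.24 (Pparg) and -0.29 (Ppargc1b). With the upper 0.5 of peaks by score, H3K27ac ratios became -0.038 (Pparg) and 0.035 (Rxra), and the H3K9ac ratio of Pparg -0.23. With equal numbers of top peaks they became -0.15 for Pparg H3K27ac, and -0.63 and -0.93 for Pparg and Ppargc1b H3K9ac. With peaks of at least 500 bp they became -0.082 for Pparg H3K27ac, and -0.15 and -0.17 for Pparg and Ppargc1b H3K9ac. With 25 kb flanks Pparg H3K27ac was -0.00078 and Ppara H3K9ac 0.13, and with the gene body only Ppara H3K9ac was 0.0076 and Pparg H3K9ac -0.018.

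Leaving out lists 1 or lists 2 gave H3K27ac ratios of -0.34 to 0.45 for Pparg, -0.14 to 0.080 for Rxra, -0.47 to 0.24 for Rxrb and -0.00097 to 0.39 for Ppargc1b. The H3K9ac ratios ran from -0.60 to 0.47 for Ppara, -0.55 to 0.25 for Ppard, -0.41 to 0.70 for Pparg and -0.49 to 0.74 for Ppargc1b. The members' median H3K9ac fasting ratio ranged from -0.49 to 0.47 in this way, and was -0.76 with equal numbers of top peaks and -0.49 after scaling. The difference of the H3K9ac fasting ratio between tetracycline states (the interaction) had a members' median of 0.49 with 25 kb flanks and 0.66 with the body only. Without lists of 1 number that difference has a value but no test.

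H3K9ac marked a gene end in all lists at 3 members with the upper 0.5 by score and at 3 with equal numbers of top peaks. The complete H3K27ac split in the Ppargc1b flank became 0 regions with the upper 0.5 by score. With 1 list per group, complete splits numbered 2 to 8 (Fast) and 2 to 4 (Fed) in H3K27ac, against 2 to 6 (Fast) and 2 to 15 (Fed) in H3K9ac. With equal numbers of top peaks 1 H3K9ac region was in all Fed and no Fast lists. Requiring an overlap of 0.5 cannot change these counts, since each peak lies wholly in its merged region. For regions differing by at least 3 lists, alternatives were added after the data were seen. H3K27ac regions in more Fast lists were then 3 with the upper 0.5 and 2 with equal numbers, and those in more Fed lists 0, 0 and 1 (peaks of at least 500 bp). H3K9ac regions in more Fast lists were 0 under each of these 3, and those in more Fed lists 3 and 3 under the first pair.

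Over all loci, the 51 called higher in Fast for H3K27ac became 25 with the upper 0.5, 20 (and 4 lower) with equal numbers, 4 with peaks of at least 500 bp, 18 with 25 kb flanks, 17 with the body only, 1 with 100 bp added, 91 with 2000 bp added, 53 (and 12 lower) after scaling, and 0 without lists 1 or without lists 2. Loci called lower with tetracycline were 8 with 2000 bp added and 12 without a filter, where 11 were called lower for the interaction. Lists share a number only in their deposited names. Deviations of same-numbered lists correlated at 0.13 to 0.35 over 18510 loci for H3K27ac and at -0.069 to 0.25 over 21106 loci for H3K9ac. With the list number as a block, the members' median fasting ratios stayed at 0.053 and -0.063, H3K27ac loci called higher in Fast numbered 248 and those lower with tetracycline 12, and no member was called.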
